A study of Homo sapiens with 14 samples.

Results

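The 19q13.41 zinc finger genes are the numbered ZNF genes that start between bases 50500000 and 54999999 of chromosome 19 (build hg38). The rule uses symbol and position alone, with no measured value, though earlier results of these data were known when it was set. Of the 35805 rows of the deposited table, 40 genes met it. Their starts run from 51571298 (ZNF175) to 53520981 (ZNF331); the band name comes with the gene set, and band limits were not checked. Total RNA was sequenced in K562, an established human line from a chronic myeloid leukaemia, and every group, controls included, carries dCas9-KRAB, an inactive Cas9 joined to a KRAB repressor domain. The 14 libraries comprise 2 from untransduced cells, 3 from cells given sgAAVS1 (a guide to the AAVS1 locus, the negative control) and, each with its own guide, 2 that target TASOR, 3 TASOR2, 2 MPP8 and 2 PPHLN1, the Periphilin gene. Transduced cells were harvested at day 7. The study asks what loss of subunits of HUSH or of HUSH2 does to the transcriptome.

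Most of these genes encode KRAB zinc finger proteins, in which an array of C2H2 fingers reads DNA and the KRAB domain recruits TRIM28, which brings the histone methyltransferase SETDB1 and H3K9 methylation. The family grew by tandem duplication, and many members bind transposable elements. HUSH, built on TASOR, and HUSH2, built on TASOR2, share MPP8, a reader of H3K9 methylation, and Periphilin, and ZNF genes themselves carry H3K9 methylation over their long last exon.

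Each level below is a log2 mean that the authors computed over a group's libraries. No SD, n over libraries or p-value can therefore be given, and spread between guides was not measurable. The ± beside a log2 difference gives the half-width of its 95% interval from read counting alone. The word called is kept for genes whose means differ by at least 1 (log2), with the higher mean above 0 and an interval that excludes 0. Low values moved in whole-read steps, which put the depth, if the scale is CPM, at 5857954 reads per library in TASOR2 to 7406988 in untransduced cells. The steps matched means of 3 libraries for sgAAVS1 and 2 for each other group, so the TASOR2 mean appears to hold 2 of its 3 libraries. Each targeted gene was lower than with sgAAVS1: 6.56% of the TASOR level (FAM208A in the table) was left, 37.5% for TASOR2 (FAM208B), 28.2% for MPP8 (MPHOSPH8) and 40.8% for PPHLN1. All 9 erythroid markers were above 0 in every group. Of the markers not expected in this line, CD3D, PTPRC, EPCAM, KRT8 and COL1A1 were also above 0 in every group, and MS4A1 was at the value of 0 reads throughout.

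Of the 40 genes, 38 had at least 1 of 6 means above 0 and were tested together with 16433 genes in all. ZNF610 and ZNF880 were not tested: their means lay between -3.04 and -2.13, and between -3.04 and -0.78, at most a few reads per group. ZNF610 was at the value of 0 reads in untransduced cells, sgAAVS1 and TASOR, and ZNF880 in untransduced cells. All 40 matched a GENCODE 29 model on the same strand. A coding model was present for 39 (ZNF321P is a transcribed processed pseudogene), and a KRAB signature was found in 38 of these, ZNF83 being the exception. The tested coding members have 7 to 26 C2H2 fingers, with a median of 13. Their longest coding exon spans 1059 to 2768 bases and holds a median of 90.2% of the coding bases, so nearly the whole finger array lies in 1 exon.

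As a set, the members sat above the control guide in every knockdown. The median difference from sgAAVS1 over the 38 members was 0.41 in TASOR, 0.63 in TASOR2, 0.45 in MPP8 and 0.53 in PPHLN1 on the log2 scale. The medians over all tested genes were 0.16, 0.07, 0.12 and 0.17, which leaves members 0.25, 0.57, 0.32 and 0.35 above them. The interval lay above 0 in 34 members for TASOR (background 50.8% of tested genes), 34 for TASOR2 (34.8%), 33 for MPP8 (40.1%) and 36 for PPHLN1 (56.0%). Untransduced cells were also above sgAAVS1, by a member median of 0.19 against 0.05 over all genes, and 32 of 38 members (84.2%) had their lowest mean in sgAAVS1, as did 32.5% of tested genes. With untransduced cells as the control, the member medians were 0.26, 0.44, 0.34 and 0.42. The medians over all tested genes were then 0.12, 0.04, 0.08 and 0.13, which leaves members 0.14, 0.41, 0.26 and 0.29 above them. Untransduced cells against sgAAVS1 left members 0.14 above all tested genes, as TASOR did here.

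Calls were fewer and all upward. TASOR knockdown called 2 members higher, ZNF534 and ZNF677 (background 1.78% of tested genes). TASOR2 called 6: ZNF331, ZNF432, ZNF528, ZNF578, ZNF677 and ZNF836 (background 2.06%). MPP8 called 6: ZNF331, ZNF528, ZNF534, ZNF578, ZNF677 and ZNF836 (background 1.51%). PPHLN1 called 6, with the names listed for MPP8 (background 2.71%). Lower calls numbered 0 in each, where 0.298%, 1.89%, 0.262% and 0.584% of tested genes were called lower. With 38 members, 0 is near those shares. The balance over all tested genes depends on scaling: higher and lower calls numbered 293 and 49 in TASOR, 339 and 311 in TASOR2, 248 and 43 in MPP8 and 446 and 96 in PPHLN1, and under quantile normalization 127 and 124, 358 and 251, 181 and 75, and 268 and 172. Untransduced cells called 0 members higher, against 1.25% of tested genes. These comparisons share the sgAAVS1 libraries, so their lists are not independent. Against both controls at once the counts were 1 in TASOR (ZNF534, background 0.487%), 4 in TASOR2 (0.943%), 5 in MPP8 (0.645%) and 6 in PPHLN1 (1.14%).

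**Figure D1:**
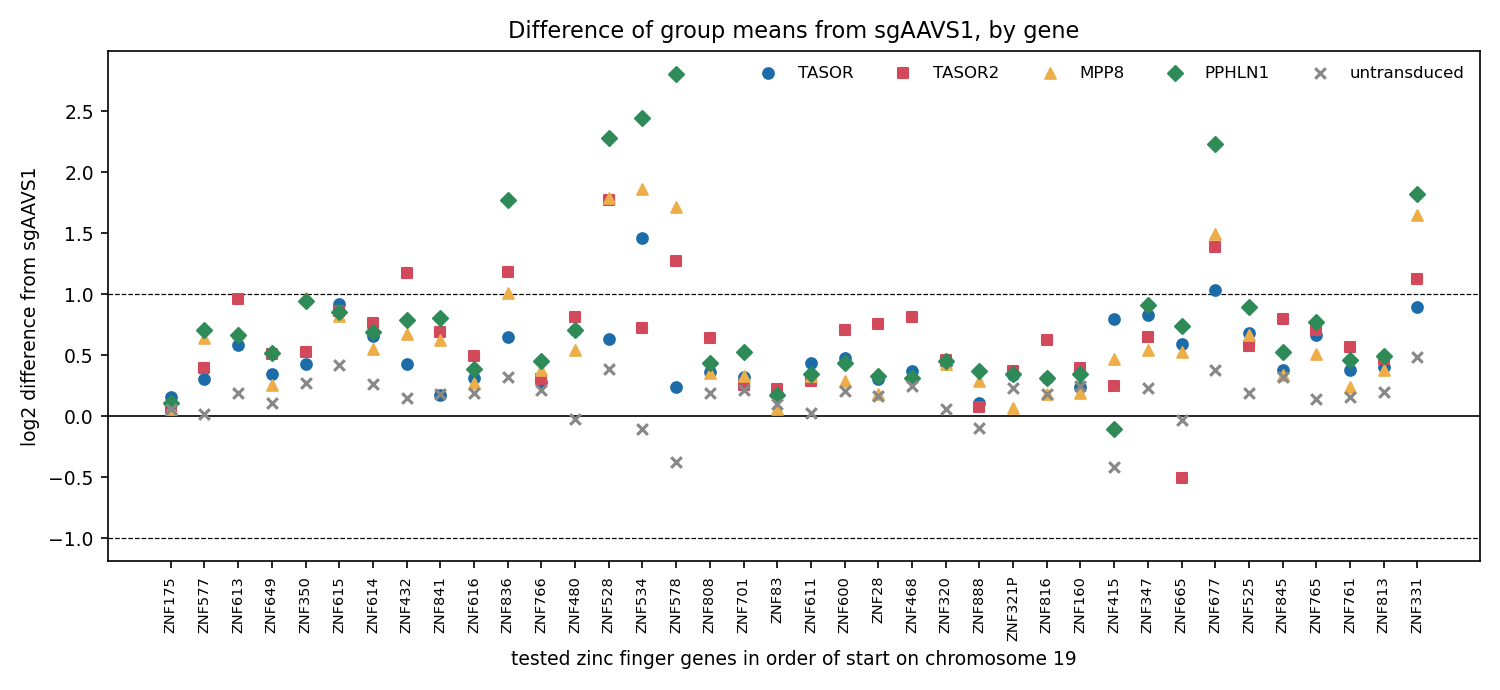
Difference of each group mean from sgAAVS1 on the log2 scale (vertical axis) for the 38 tested members in order along chromosome 19 (horizontal axis); dashed lines mark a difference of 1. PPHLN1 reached 2.81 at ZNF578, and ZNF665 in TASOR2 was 0.51 below the control.

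The promoters of the 6 members called in at least 3 knockdowns are shown so that their starts can be compared letter by letter. RefSeq promoter windows (GRCh38.p14, 250 bases before to 50 after the start) were matched for 32 of 40 members by symbol. The windows are chr19:52171572-52171871 (-) for ZNF836, chr19:52397599-52397898 (+) for ZNF528, chr19:52428898-52429197 (+) for ZNF534, chr19:52453303-52453602 (+) for ZNF578, chr19:53254774-53255073 (-) for ZNF677 and chr19:53520764-53521063 (+) for ZNF331. Capitals mark matches on either strand to the motifs searched: the TATA box TATAAA, the CCAAT box CCAAT, the GC box GGGCGG (also read as its complement), the ETS core CCGGAAG, the extended ETS core ACCCGGAAG, which contains it, the YY1 core ATGGCGGC, the CRE TGACGTCA, GAS (TTCNNNGAA), and the ISRE, NRF1 and ZNF143 motifs by their usual cores. In ZNF578 a GAS match runs straight into an extended ETS core.
ZNF836: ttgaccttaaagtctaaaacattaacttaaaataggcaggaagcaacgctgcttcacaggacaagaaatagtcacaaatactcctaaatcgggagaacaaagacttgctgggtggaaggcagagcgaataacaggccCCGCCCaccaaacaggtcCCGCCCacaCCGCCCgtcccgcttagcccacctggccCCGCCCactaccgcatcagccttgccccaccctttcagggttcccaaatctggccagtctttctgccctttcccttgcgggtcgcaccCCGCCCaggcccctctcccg
ZNF528: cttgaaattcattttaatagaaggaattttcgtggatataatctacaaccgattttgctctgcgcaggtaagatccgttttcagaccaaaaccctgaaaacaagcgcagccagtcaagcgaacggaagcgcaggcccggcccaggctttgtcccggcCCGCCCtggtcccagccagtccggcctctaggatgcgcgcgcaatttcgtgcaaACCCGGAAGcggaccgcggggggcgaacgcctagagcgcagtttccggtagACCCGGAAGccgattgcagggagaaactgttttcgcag
ZNF534: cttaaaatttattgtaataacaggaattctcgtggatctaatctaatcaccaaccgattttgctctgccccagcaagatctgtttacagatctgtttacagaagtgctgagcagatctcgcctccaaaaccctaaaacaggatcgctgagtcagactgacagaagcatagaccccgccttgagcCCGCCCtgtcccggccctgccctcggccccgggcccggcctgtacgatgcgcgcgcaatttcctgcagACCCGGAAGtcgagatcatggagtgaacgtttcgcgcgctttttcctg
ZNF578: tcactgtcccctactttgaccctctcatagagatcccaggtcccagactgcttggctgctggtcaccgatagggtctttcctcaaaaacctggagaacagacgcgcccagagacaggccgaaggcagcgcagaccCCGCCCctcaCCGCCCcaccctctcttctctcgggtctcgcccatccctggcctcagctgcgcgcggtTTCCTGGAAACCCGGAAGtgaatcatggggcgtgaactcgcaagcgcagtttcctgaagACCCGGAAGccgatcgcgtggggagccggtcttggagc
ZNF677: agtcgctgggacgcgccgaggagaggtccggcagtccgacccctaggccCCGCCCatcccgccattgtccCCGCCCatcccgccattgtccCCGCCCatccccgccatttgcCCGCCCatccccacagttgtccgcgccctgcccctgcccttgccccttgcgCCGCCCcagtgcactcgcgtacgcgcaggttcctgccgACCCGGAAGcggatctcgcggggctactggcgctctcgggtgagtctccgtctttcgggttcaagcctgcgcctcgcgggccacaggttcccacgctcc
ZNF331: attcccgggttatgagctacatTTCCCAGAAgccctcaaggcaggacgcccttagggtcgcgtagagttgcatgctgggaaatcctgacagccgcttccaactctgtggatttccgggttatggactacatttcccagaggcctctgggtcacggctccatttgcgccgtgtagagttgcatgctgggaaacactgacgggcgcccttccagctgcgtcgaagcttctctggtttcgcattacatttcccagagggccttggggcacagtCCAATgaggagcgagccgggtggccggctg

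The ETS core, the centre of sites bound by the ETS transcription factors, occurred in 20 of 32 member windows (62.5%) and in 10.3% of all 35116 windows. The GC box occurred in 81.2% against 45.0%, and the CCAAT box in 28.1% against 34.6%. No member window held TATAAA, CRE or the ISRE core. The extended form was noticed after the windows were seen. It occurred in 16 of the 32 member windows and in 1.07% of all windows, and in 15 of the 16 a match began within 20 bases after the start, as in 0.228% of all windows. ZNF528 and ZNF578 each hold 2 copies, ZNF534 and ZNF677 hold 1, and the other 3 called members, ZNF331, ZNF836 and ZNF432, hold none; the ZNF432 window lies 46900 bases from the start of its row. Uncalled members such as ZNF808, ZNF611 and ZNF160 hold it as well. Members share ancestry, so their matches are not independent, and a match is a string of letters and no evidence of binding.

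**Figure D2:**
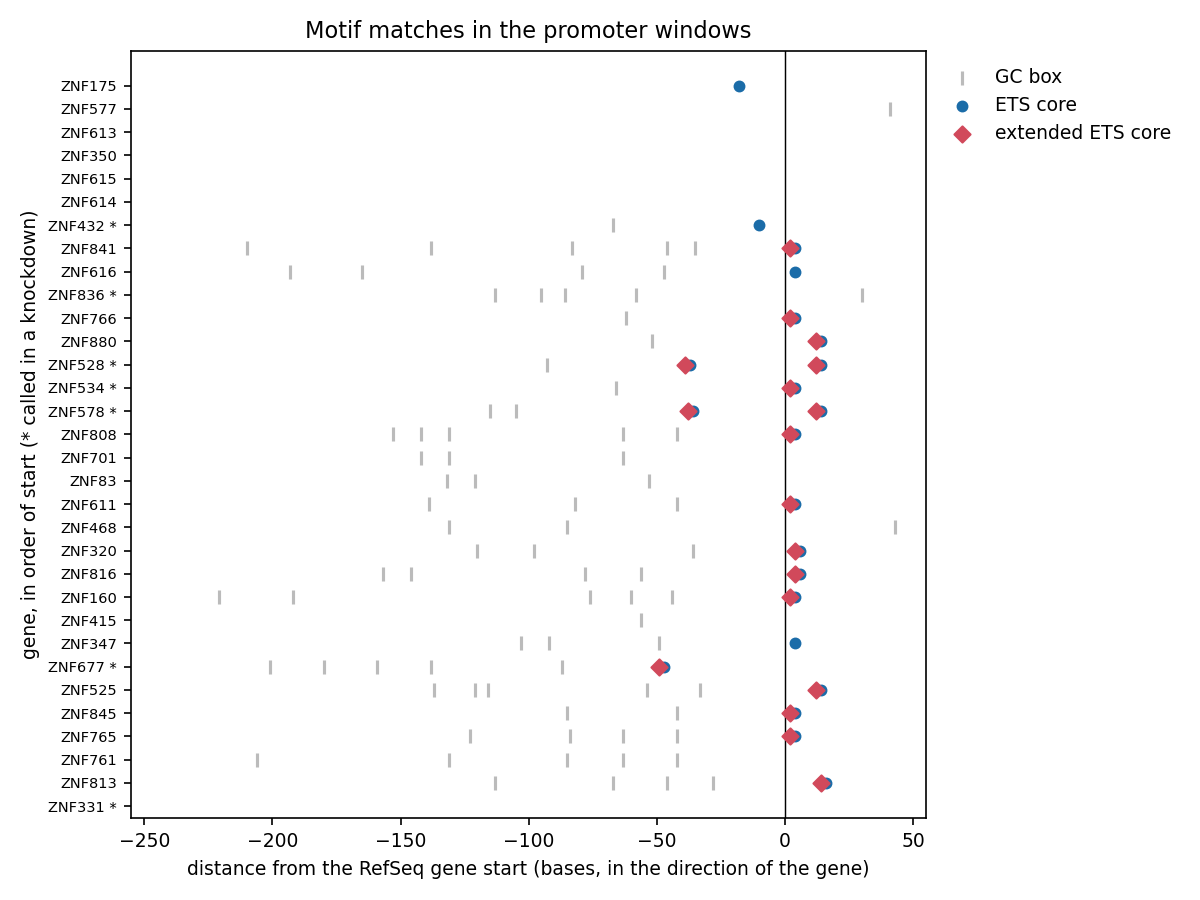
Matches to the GC box and the ETS core in 32 promoter windows, by distance from the start (horizontal axis, bases); rows are genes and asterisks mark members called in a knockdown. Matches to the extended ETS core line up just after the start in 15 members, and further upstream in ZNF677.

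ZNF528 encodes a protein of 15 fingers. Its log2 means were 4.09 in untransduced cells, 3.70 in sgAAVS1, 4.33 in TASOR, 5.47 in TASOR2, 5.49 in MPP8 and 5.98 in PPHLN1. TASOR stood just above the controls and the other 3 knockdowns well above them. Against sgAAVS1 the differences were 0.63 ± 0.25, 1.77 ± 0.22, 1.79 ± 0.22 and 2.28 ± 0.21, the last a 4.86-fold higher level. The row overlaps no other row.

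ZNF528-AS1 lies head to head with ZNF528 on the other strand, their starts 82 bases apart. That noncoding gene, no member of the set, had log2 means of 1.43, 1.27, 2.53, 2.73, 4.48 and 4.80 in the same order of groups. It was highest in MPP8 and PPHLN1, whereas MPP8 and TASOR2 differed at ZNF528 by 0.02 ± 0.17, within counting error.

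ZNF534, known for binding endogenous retroviruses of the HERVH family, showed another order. Its log2 means were 1.22, 1.33, 2.79, 2.06, 3.19 and 3.77 for untransduced, sgAAVS1, TASOR, TASOR2, MPP8 and PPHLN1. TASOR2 was the lowest knockdown here. The differences from sgAAVS1 were 1.46 ± 0.53, 0.73 ± 0.60, 1.86 ± 0.52 and 2.44 ± 0.49. It was the only member called against both controls in TASOR, and it too overlaps no other row.

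ZNF578 covered the widest range of the set. Its log2 means were 1.05, 1.43, 1.66, 2.70, 3.14 and 4.23 in the same group order. TASOR differed from sgAAVS1 by 0.24 ± 0.61, within counting error. TASOR2 was higher by 1.27 ± 0.54, MPP8 by 1.72 ± 0.51 and PPHLN1 by 2.81 ± 0.46, or 6.99-fold. A noncoding row, CTD-3099C6.5, overlaps it on the other strand. Whether reads were counted by strand is not stated, so the 2 cannot be told apart.

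ZNF677, reported as silenced in several cancers, was the least abundant tested member per exonic base. Its log2 means were 0.24, -0.14, 0.90, 1.25, 1.36 and 2.10. All 4 knockdowns were called. The differences were 1.04 in TASOR, with an interval that only just excludes 0, 1.39 ± 0.98 in TASOR2, 1.49 in MPP8 and 2.23 ± 0.90 in PPHLN1, on few reads. The TASOR call ended with untransduced cells as the control (0.66), and under median centring (0.87) or quantile normalization (0.75). With the filter on levels raised by 2 log2 units, the calls of ZNF677 in TASOR, TASOR2 and MPP8 ended and that in PPHLN1 did not. A noncoding row, CTD-2245F17.6, overlaps it on the other strand.

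ZNF331, an imprinted gene in many tissues, had log2 means of 4.13, 3.65, 4.54, 4.77, 5.29 and 5.47. Its differences from sgAAVS1 were 0.90 ± 0.24 in TASOR, 1.13 ± 0.25 in TASOR2, 1.65 ± 0.23 in MPP8 and 1.82 ± 0.22 in PPHLN1. Against untransduced cells the TASOR2 difference was 0.64, short of a call. This row overlaps no other.

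ZNF836, with 24 fingers, had log2 means of 1.20, 0.88, 1.52, 2.06, 1.89 and 2.65. PPHLN1 was higher than sgAAVS1 by 1.77 ± 0.62, TASOR2 by 1.18 ± 0.67 and MPP8 by 1.01 ± 0.69. The TASOR2 and MPP8 calls ended against untransduced cells (0.87 and 0.69), and the MPP8 call also under median centring (0.88) and quantile normalization (0.83). The raised filter also ended the MPP8 call. The same-strand row CTC-471J1.8 overlaps it, with means of 0.74, 0.45, 0.95, 1.16, 0.87 and 1.74, so the counting could share reads between them.

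ZNF432 was called against sgAAVS1 in TASOR2 alone, and no direct comparison between knockdowns called it. Its log2 means were 4.94, 4.79, 5.21, 5.96, 5.46 and 5.57, highest in TASOR2. The TASOR2 difference was 1.18 ± 0.16, against 0.43 ± 0.18 in TASOR, 0.67 ± 0.18 in MPP8 and 0.78 ± 0.17 in PPHLN1. Directly, TASOR2 minus TASOR was 0.75 ± 0.16, MPP8 minus TASOR2 -0.50 ± 0.16 and PPHLN1 minus TASOR2 -0.39 ± 0.16. The ZNF432 row overlaps that of ZNF841 on the same strand, which differed from sgAAVS1 by 0.69 ± 0.12 in TASOR2. It also overlaps CTC-471J1.2 on the same strand and CTC-471J1.11 on the other.

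**Figure D3:**
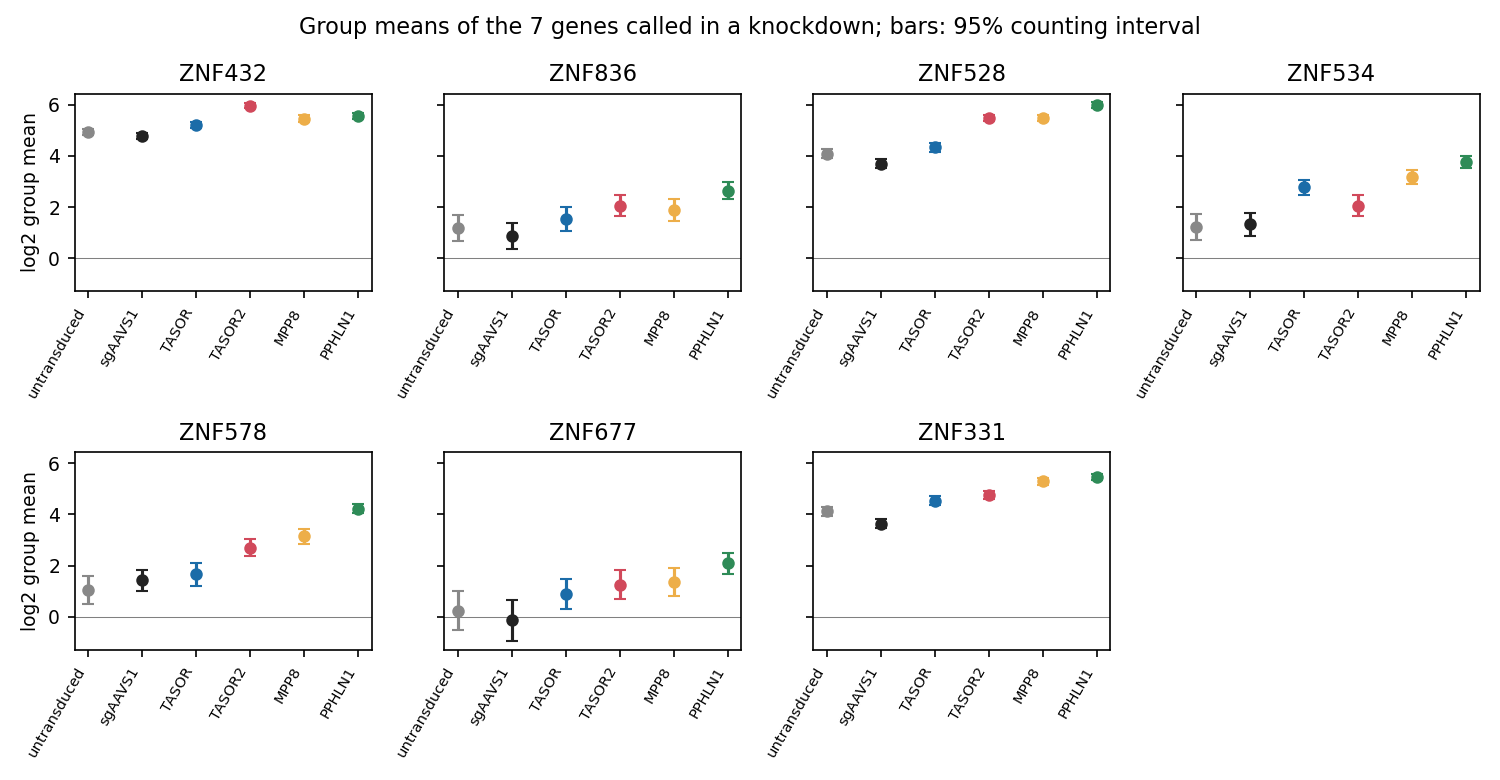
Log2 group means (vertical axis) of the 7 members called in at least 1 knockdown, 1 panel per gene and 1 point per group; bars are 95% counting intervals, which leave out spread between libraries. PPHLN1 is the highest group in every panel but that of ZNF432, where TASOR2 is highest at 5.96.

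The knockdowns were then compared with one another, without the control libraries. TASOR2 minus TASOR called 2 members higher, ZNF528 by 1.14 ± 0.21 and ZNF578 by 1.03 ± 0.55 (background 1.25%), and ZNF665 lower by -1.10 ± 0.36 (background 4.98%). With a GC trend removed both higher calls ended, and under quantile normalization the lower call ended; over all tested genes that scaling turned 205 higher and 819 lower calls into 417 and 344. MPP8 minus TASOR called the same 2 names higher, by 1.16 ± 0.21 and 1.48 ± 0.52 (background 0.706%). PPHLN1 minus TASOR called 4: ZNF528, ZNF578, ZNF677 and ZNF836, by 1.13 to 2.57 (background 1.28%). PPHLN1 minus TASOR2 called ZNF534, ZNF578 and ZNF665 higher, by 1.72 ± 0.47, 1.53 ± 0.38 and 1.25 ± 0.37 (background 4.76%; 783 higher and 233 lower over all genes, 359 and 406 under quantile normalization). MPP8 minus TASOR2 called ZNF534 and ZNF665 higher, by 1.13 ± 0.50 and 1.03 ± 0.38 (background 3.66%; 601 higher and 236 lower over all genes, 348 and 353 under quantile normalization). Under that scaling both of these calls ended, and under median centring that of ZNF665 did. PPHLN1 minus MPP8 called 1, ZNF578, by 1.09 ± 0.34 (background 0.803%). These pairs share libraries with each other as well.

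In TASOR2, ZNF665 was the only 1 of 38 members whose interval against sgAAVS1 lay below 0. Among all tested genes 2786 of 16433 did so, a larger share, and its lower call against TASOR ended under quantile normalization. Its log2 means were 3.36 in untransduced cells, 3.39 in sgAAVS1, 3.99 in TASOR, 2.88 in TASOR2, 3.92 in MPP8 and 4.14 in PPHLN1. It was below both controls in TASOR2, by -0.51 ± 0.37 against sgAAVS1, and above them in the other 3 knockdowns. Its protein is 80.5% identical to that of ZNF160, so reads may be split between the 2.

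Level and response were related within the set. On the scale of log2 level per exonic kilobase in untransduced cells, members ran from -2.98 to 4.17 with a median of 2.62. Of 38 members ranked from highest, the called genes held ranks 23 (ZNF432), 29 (ZNF528), 30 (ZNF331), 34 (ZNF534), 35 (ZNF836), 36 (ZNF578) and 38 (ZNF677). Spearman's rho between that level and the difference from sgAAVS1 was -0.53 in TASOR, -0.36 in TASOR2, -0.68 in MPP8 and -0.57 in PPHLN1, over 38 genes that share libraries and depth, as a description. Low levels also carry wider counting error. For finger number and longest coding exon, rho lay between -0.23 and 0.10 over 37 coding members. For CpG count in the promoter window, rho was -0.28 in TASOR, -0.04 in TASOR2, -0.46 in MPP8 and -0.28 in PPHLN1 over 31 members. For transcript GC it was -0.11, -0.35, -0.20 and -0.28 in the same order, over 37 coding members. These values too are descriptions.

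**Figure D4:**
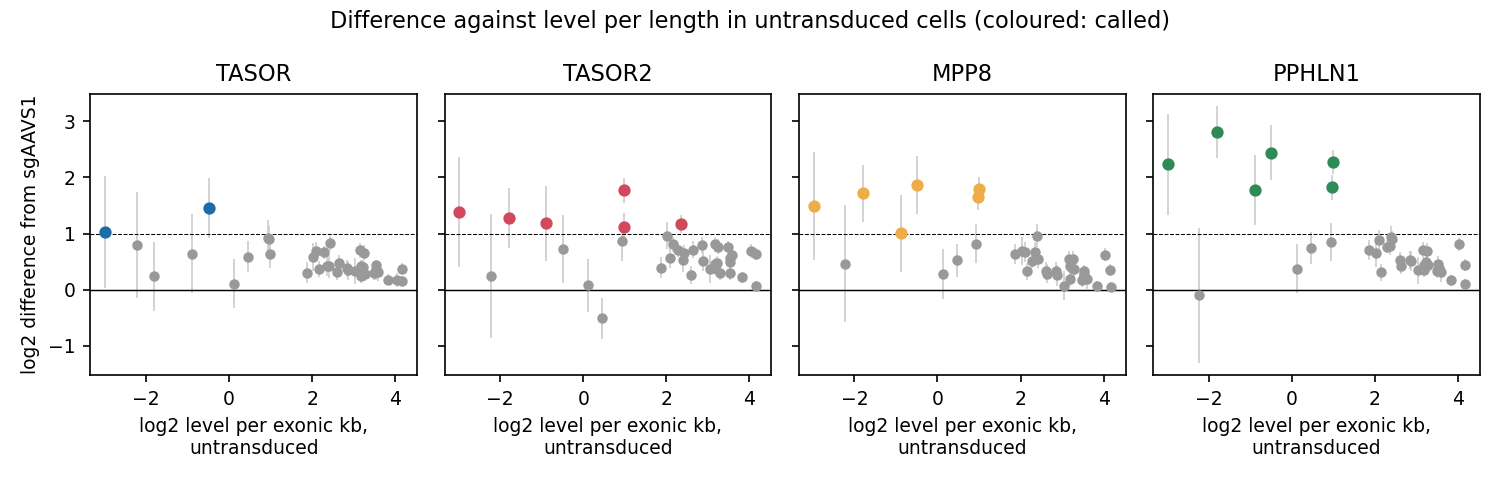
Difference from sgAAVS1 (vertical axis, log2) against level per exonic kilobase in untransduced cells (horizontal axis, log2), 1 panel per knockdown and 1 point per member, with 95% counting intervals; coloured points are called. The called members lie at or below 2.36 per exonic kilobase.

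The 31 uncalled members differed from sgAAVS1 by less than 1 in the 4 knockdowns. Against untransduced cells, TASOR called 2 members, ZNF534 and 1 of these 31, ZNF415, at 1.21 ± 1.12 (background 1.12%); the log2 means of ZNF415 were -0.30, 0.11, 0.91, 0.35, 0.58 and 0.01, on few reads. Nearest to a call were ZNF350, the BRCA1 partner ZBRK1, at 0.97 ± 0.20 in MPP8, ZNF613 at 0.96 ± 0.24 in TASOR2, ZNF615 at 0.92 ± 0.33 in TASOR and ZNF347 at 0.91 ± 0.14 in PPHLN1. Of 21 members with an sgAAVS1 mean above 5, a read level not scaled to length, 0 were called. Over tested genes of any level, 1.51% (MPP8) to 2.71% (PPHLN1) were called higher, so 0 of 21 is near that share. The median differences of these 21 members were 0.37 in TASOR, 0.63 in TASOR2, 0.33 in MPP8 and 0.45 in PPHLN1. Over all genes above that level they were 0.14, 0.10, 0.11 and 0.16. ZNF175, known as OTK18, a repressor of the HIV-1 promoter, stayed near 7 in all groups: 7.06, 6.997, 7.15, 7.07, 7.05 and 7.10. ZNF83, the member without a KRAB signature, differed by at most 0.22 ± 0.10. ZNF808, a repressor of MER11 elements needed for human pancreas development, had means of 6.49, 6.29, 6.66, 6.93, 6.65 and 6.73. ZNF321P, the pseudogene, differed by at most 0.37 ± 0.24.

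Position along the chromosome was described in 4 runs of 10 members. From ZNF836 to ZNF701, 8 tested, PPHLN1 gave the highest knockdown mean in 6. In this run PPHLN1 and MPP8 each called 4, TASOR2 called 3 and TASOR 1. From ZNF83 to ZNF160 no member was called and TASOR2 was highest in 8 of 10. From ZNF415 to ZNF331 PPHLN1 was highest in 7 of 10. There PPHLN1, MPP8 and TASOR2 each called 2 and TASOR called 1. From ZNF175 to ZNF616 the only call was ZNF432 in TASOR2. Over all 38, the highest knockdown was PPHLN1 in 17, TASOR2 in 16, TASOR in 4 and MPP8 in 1. No share over all tested genes stands beside these counts, and the order of PPHLN1 and TASOR2 depends on scaling. The median of PPHLN1 minus TASOR2 was 0.115 over all tested genes and 0.015 over members. The member median was -0.09 under median centring and 0.18 with a GC trend removed. Member transcripts are poorer in G and C than most (median 45.5% against 50.4% over tested genes), and after a GC trend was removed the TASOR2 member median was 0.49 in place of 0.63.

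Just inside the window's ends lie ZNF175 and ZNF577, and ZNF813 and ZNF331. ZNF577 had means from 4.76 (sgAAVS1) to 5.46 (PPHLN1) and ZNF813 from 5.68 to 6.17. Just outside, ZNF541 ran from 0.70 to 1.99, ZNF473 from 6.64 to 7.05, ZNF628 from 6.01 to 6.40 and ZNF579 from 6.02 to 6.61.

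Beside the 38 members, 193 other numbered ZNF genes of chromosome 19 were called higher in 3.11% (TASOR), 13.0% (TASOR2), 18.7% (MPP8) and 25.4% (PPHLN1), where members were called in 5.26%, 15.8%, 15.8% and 15.8%. Their medians were 0.29, 0.40, 0.34 and 0.47. The 230 numbered ZNF genes of other chromosomes were called in 3.04%, 3.04%, 2.17% and 2.61%, with medians of 0.23, 0.18, 0.13 and 0.24. The 66 tested genes of the same window that are not numbered ZNF genes were called higher in 10.6%, 1.52%, 9.09% and 9.09%, and their TASOR2 median was -0.15. Among them ERVV-2, an endogenous retroviral envelope gene, was at -2.68 in sgAAVS1, -0.77 in MPP8 and 0.08 in PPHLN1, on few reads. The sgAAVS1 mean is near the value of 0 reads (-2.78), and of these means only that in PPHLN1 is above 0, the filter on levels. This gene was chosen after its values were seen, so it is an example only. Of 20 genes for HUSH subunits, TRIM28, SETDB1 and other H3K9 methylation factors, 0 were called higher, and the targeted gene was the only one called lower in each knockdown. Over all tested genes 1.51% (MPP8) to 2.71% (PPHLN1) were called higher and 0.262% (MPP8) to 1.89% (TASOR2) lower. So few calls among 20 genes are near those shares.

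**Figure D5:**
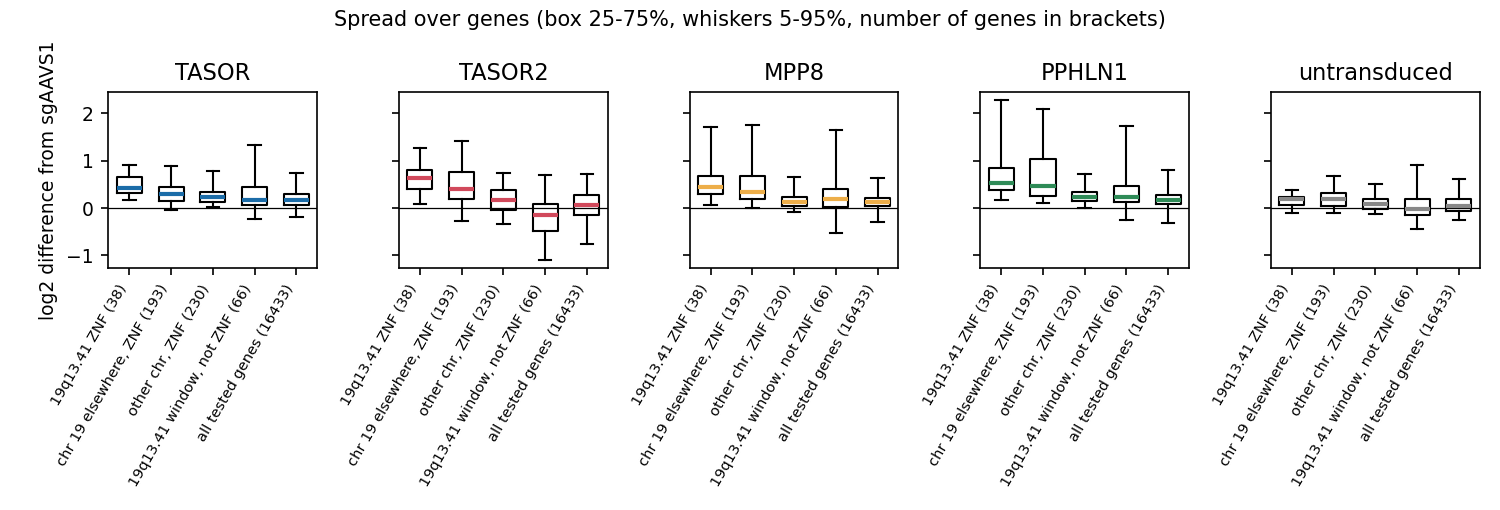
Log2 difference from sgAAVS1 (vertical axis) in 5 sets of genes for each knockdown and for untransduced cells; lines are medians, boxes the middle 50% and whiskers the 5th to 95th percentile over genes. The member median in TASOR2 is 0.63, against 0.07 over all tested genes.

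Sequence likeness bears on how reads can be assigned. The closest other member was at least 70% identical in protein for 20 members, at least 80% for 11 and at least 90% for 2, ZNF28 and ZNF468 at 91.2%. Values of ZNF28, ZNF468, ZNF600, ZNF611, ZNF808 and the other close pairs may therefore hold reads of one another. The likeness is of proteins, and how reads were assigned was not tested. The 7 called members were between 54.6% and 77.5% identical to their closest member. The rows of 28 of 40 members overlap another row, 17 of them another member. Among genes with all 6 means above 3, the 3 outside the set whose 6 means followed the mean of the called members most closely, by Pearson's r over 6 groups, were NUB1 (0.997), CCDC152 (0.997) and ZNF417 (0.994), as a description only.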

How the data were processed

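The authors deposited 1 table of 35805 rows and 6 value columns. The submitters' processing notes name cutadapt, Bowtie2 and hg38. The counter, annotation, handling of duplicates and use of strand were not given in the sources used here. Per the file headers and values, the deposited untransduced column is a mean log2 value, and the other 5 deposited columns are ratios of a group's mean log2 value to it, which were multiplied back. In 102 rows the divisor lay within 0.05 of 0, so recovery is less exact there. Genes with 0 reads sit at 0.9 reads; values at low levels were whole-read means (100% within a relative tolerance of 0.001). Genes with at least 1 of 6 means above 0 were tested (16433, 1 row per symbol). Planned limma tests need single libraries, so a rule of size replaced them. Of the markers not expected in K562, 1 is not reported here. Members and lists were chosen with earlier results of these data known. Named genes were the largest called per knockdown, those called against both controls, the highest means, the smallest changes and the window's edges; members near a call, ZNF665 and ERVV-2 were chosen after their values were seen. GENCODE 29 gave exons, proteins and transcript GC (13810 genes matched), and RefSeq the promoters. Python 3.11.15, pandas 2.3.3, NumPy 2.4.6, SciPy 1.17.1 and Biopython 1.88 were used.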

Additional observations from a re-analysis of the deposited data

How the results depend on the processing

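No called difference of a named member from sgAAVS1 changed sign. The member median of TASOR2 minus TASOR went from 0.11 to -0.02 with a GC trend removed, and that of PPHLN1 minus TASOR2 from 0.02 to -0.09 under median centring and -0.06 under quantile normalization. For MPP8 minus TASOR2, whose alternatives were added after seeing the data, the member median went from -0.10 to 0.07 with a GC trend removed. For that pair 1 member was called higher under median centring, 0 under quantile normalization, 1 among members under 70% protein identity and 1 among those whose row overlaps no other. At a difference of 0.5, ZNF534, ZNF665 and ZNF331 (0.52 ± 0.21) were called higher and 2 were called lower, ZNF28 (-0.58 ± 0.13) and ZNF432 (-0.50 ± 0.16). With a difference of at least 0.5 in place of 1, members called higher numbered 12 in TASOR, 24 in TASOR2 (1 lower), 18 in MPP8 and 21 in PPHLN1, and against both controls 5, 15, 11 and 15. At that size TASOR2 minus TASOR called 4 higher and 2 lower, MPP8 minus TASOR 4, PPHLN1 minus TASOR 8, PPHLN1 minus TASOR2 7 and PPHLN1 minus MPP8 4. The shares of tested genes given above are for a difference of 1. They are no background for the counts at 0.5, which cannot be read as particular to the members. Median centring, a filter raised by 2 log2 units and quantile normalization each left 1 member called in TASOR; the raised filter also left 5 in TASOR2 and 4 in MPP8. Quantile normalization left 0 lower in TASOR2 minus TASOR. With a GC trend removed TASOR2 minus TASOR called 0 higher. Among members under 70% protein identity, fewer genes were counted: TASOR2 minus TASOR gave 1 higher and 0 lower, MPP8 minus TASOR 1, PPHLN1 minus TASOR 2, PPHLN1 minus TASOR2 1 and PPHLN1 minus MPP8 0. An alternative chosen after seeing the data kept the 11 members whose row overlaps no other: 1 was called in TASOR, 2 in TASOR2, 3 in MPP8 and 3 in PPHLN1, and against both controls 1 in TASOR2, 3 in MPP8 and 3 in PPHLN1. For these 11, TASOR2 minus TASOR called 1 higher and 0 lower, MPP8 minus TASOR 1, PPHLN1 minus TASOR 1, PPHLN1 minus TASOR2 1 and PPHLN1 minus MPP8 0. Except where the setting itself counts fewer members, the cause was not tested. No paired analysis was possible because the deposited columns are group means and carry no replicate numbers; no replicate could be left out for the same reason. Depth limits the genes near a log2 mean of 0, such as ZNF677 and ZNF415.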
